A study of Rattus norvegicus with 6 samples.

Results

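The plasminogen activators, the urokinase receptor and 3 serpins were followed through 6 genes, Plau, Plat, Plaur, Serpine2, Serpinb2 and Serpinf1. They were chosen by gene symbol as the plasminogen activation system. Of the 6, 5 were matched to a probe each, out of 13336 genes with a named probe among the 22517 probes of the array. Plaur, the receptor that holds urokinase on the cell surface, was not analysed here, because the annotation used here pairs no probe with it. RNA came from granulation tissue, the new tissue that fills a wound or a foreign body, grown in subcutaneous implants of uncoated cellulose. The day 3 group was rats 4, 6 and 7, sampled 72 hours after implantation, and the day 1 group was rats 1, 2 and 3, sampled at 24 hours. All 6 were Sprague-Dawley rats aged 10 weeks with no other treatment named in the labels, each on 1 Illumina BeadChip array. Tissue without an implant was not analysed here.

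Plasminogen is a circulating zymogen that becomes plasmin, the protease that dissolves fibrin and cleaves matrix proteins such as laminin and fibronectin. The conversion is made by a pair of secreted serine proteases, the urokinase-type activator (Plau) and the tissue-type activator (Plat). Urokinase is tied mainly to cell migration and pericellular proteolysis, and the tissue-type activator mainly to fibrin in and around vessels. Most serpins are suicide inhibitors that trap their protease in a covalent complex. In a healing wound, those that act on plasmin or its activators limit how far the fibrin-rich provisional matrix is removed.

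Urokinase and 2 of the serpins, Serpine2 and Serpinf1, were higher in the day 3 implants, while the third serpin, Serpinb2, was lower there. Plau rose 1.68-fold, Serpine2 1.53-fold and Serpinf1 2.10-fold, and Serpinb2 fell 2.23-fold (3 rats per day). Plat had a day 3 level 1.69-fold that of day 1 and did not pass the test. In whole tissue, fewer cells of a type and less RNA per cell cannot be told apart. Of the measured members, 3 of 5 passed upward, 1 passed downward and 1 did not pass. Among all 8412 named genes bright enough to be tested, 25.0% passed, 13.9% upward and 11.1% downward. The 3 rats of one day lay apart from the 3 of the other in 5 of 5 members, against 42.5% of the tested genes. The members were chosen with earlier results of these data known, so setting their counts beside these shares is only a description. The test was limma's moderated test on log2 intensities, adjusted by Benjamini and Hochberg over all 11650 tested probes with 0.05 as the threshold. All 5 members had a signal above the estimated background on each of the 6 arrays, so none entered the test through 1 day alone. The size of the log2 difference was exceeded by 7.54% of tested genes for Serpinb2, 8.90% for Serpinf1, 16.3% for Plat, 16.6% for Plau and 22.4% for Serpine2.

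**Figure D1:**
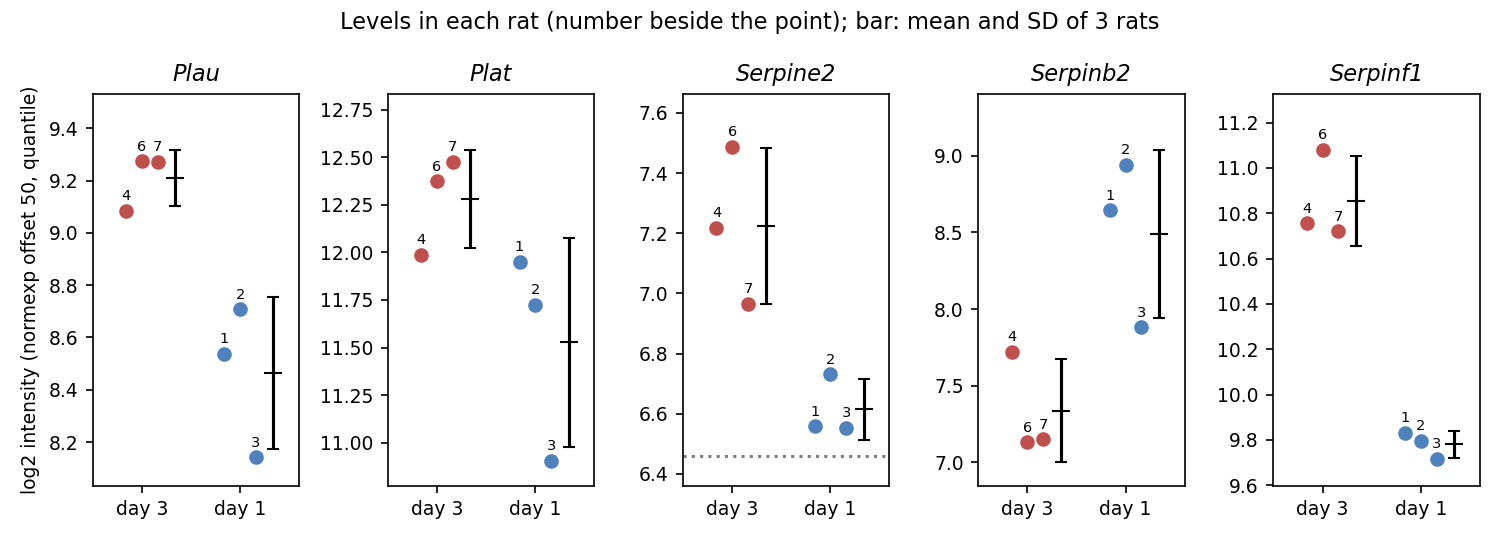
Level of each measured member in each rat, as log2 intensity after background correction, with day 3 left of day 1. Points are rats, numbered as in the labels, bars are the mean and SD of 3 rats, the dotted line in the Serpine2 panel is the background limit at 6.46, and each panel has its own scale. The days do not overlap in any panel, and rat 3 is the lowest day 1 point in each of the 5.

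Rat 3 stood apart from its own day. Pairs of day 3 rats had correlations of 0.987 to 0.992 over the tested probes, and rats 1 and 2 had 0.991. For rat 3 the value was 0.955 against rat 1 and 0.962 against rat 2, within the 0.918 to 0.963 seen between rats of different days (Pearson r over 11650 probes, which are not independent). Against day 3 rats 4, 6 and 7, rat 3 itself had 0.941, 0.934 and 0.918, lower than both of its day 1 values. Fat cell markers in rat 3 exceeded the mean of the other day 1 rats by a median of 3.14 log2 units over 7 genes, and skeletal muscle markers by 1.75 over 7 genes. The summed muscle intensity did not set rat 3 apart: day 1 rats 1, 2 and 3 had 3874, 16972 and 15543, and day 3 rat 6 had 17468. The summed fat cell intensity was highest for rat 3, at 81287, with day 3 rat 4 next at 44147. Each member's difference is therefore also given without rat 3.

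Marker lists of several cell types moved with the days, and their part in the results was not tested. Neutrophil markers passed downward in 9 of 10 tested genes (Ltf and Ngp were not above background on any array), and their summed intensity ran from 5158 to 9342 at day 3 and from 22432 to 45637 at day 1. Mast cell markers passed downward in 7 of 7, with sums from 1371 to 2078 at day 3 and from 5127 to 8493 at day 1, and Kit and Mcpt1 not above background. Fibroblast markers passed upward in 9 of 11, with sums from 141306 to 166649 at day 3 and from 64158 to 79149 at day 1. Endothelial markers passed upward in 6 of 8, with sums from 23438 to 34210 at day 3 and from 11147 to 14693 at day 1, although the defining marker Cdh5 was not above background on any array. Of 7 tested macrophage markers 3 passed upward and 1 downward. Their summed intensities overlapped between the days, from 14876 to 24567 at day 3 and from 18461 to 25391 at day 1, with Marco not above background. Among the less bright lists, mesothelial markers passed upward in 1 of 2 (Msln, by 3.29, limma adjusted p = 0.00545), with sums from 1556 to 3094 at day 3 and from 511 to 693 at day 1 and the defining marker Wt1 not above background. Smooth muscle and pericyte markers passed upward in 2 of 5, with sums from 6527 to 9768 at day 3 and from 4419 to 5297 at day 1, and Cnn1 not above background. Keratinocyte markers passed upward in 3 of 3, with sums from 629 to 697 at day 3 and from 522 to 540 at day 1, and Krt14, Krt1 and Krt15 not above background. Krt10 and Trp63, and Rgs5 of the smooth muscle list, were above background on 3 day 3 arrays and 0 day 1 arrays. These genes entered the test through day 3 alone, so the filter largely set their upward direction. Pkp1 of the keratinocyte list was above background on 3 day 3 arrays and 1 day 1 array. In the mast cell list the reverse held for Ms4a2 and Fcer1a, with 1 day 3 array and 3 day 1 arrays. For them day 1 alone was enough to enter the test, so the filter favoured their downward direction. The sums include the genes not above background. No tested fat cell, skeletal muscle or T cell marker passed (0 of 7, 0 of 7 and 0 of 6), and the sums of these lists overlapped between the days.

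The starts of the 4 genes that passed the test are shown so that the 3 that rose and the 1 that fell can be compared by base content and by common promoter motifs. The promoter set used here holds no window for Plat. Each line is the 250 bases before the gene's start in RefSeq (build GRCr8), read 5′ to 3′ along the gene, with matches on either strand in capitals to a TATA box (TATAAA), an AP-1 site (TGANTCA) or a GC box (GGGCGG). Matches may share bases.
Plau, chr15:3511988-3512237, minus strand: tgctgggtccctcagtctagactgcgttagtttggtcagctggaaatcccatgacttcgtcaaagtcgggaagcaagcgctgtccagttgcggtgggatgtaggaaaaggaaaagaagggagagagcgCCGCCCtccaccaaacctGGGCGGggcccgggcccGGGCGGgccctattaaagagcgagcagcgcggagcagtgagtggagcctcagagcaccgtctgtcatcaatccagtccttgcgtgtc
Serpine2, chr9:88637203-88637452, minus strand: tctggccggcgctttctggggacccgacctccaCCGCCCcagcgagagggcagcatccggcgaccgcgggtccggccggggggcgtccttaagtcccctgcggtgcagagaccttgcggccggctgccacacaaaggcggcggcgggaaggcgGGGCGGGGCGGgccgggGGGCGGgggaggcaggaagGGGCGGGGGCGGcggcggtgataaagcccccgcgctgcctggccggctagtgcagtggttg
Serpinf1, chr10:60760899-60761148, minus strand: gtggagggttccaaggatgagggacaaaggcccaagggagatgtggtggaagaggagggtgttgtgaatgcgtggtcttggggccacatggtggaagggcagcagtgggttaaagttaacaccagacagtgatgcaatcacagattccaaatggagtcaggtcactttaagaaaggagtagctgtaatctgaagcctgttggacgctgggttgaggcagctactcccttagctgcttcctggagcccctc
Serpinb2, chr13:24055771-24056020, plus strand: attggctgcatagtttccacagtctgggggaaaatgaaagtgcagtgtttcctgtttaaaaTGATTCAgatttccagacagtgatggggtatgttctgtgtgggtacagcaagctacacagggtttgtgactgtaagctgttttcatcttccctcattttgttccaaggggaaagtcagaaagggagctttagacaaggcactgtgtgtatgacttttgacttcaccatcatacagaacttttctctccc
Plau and Serpine2 had GC-rich starts, with 60% and 76.8% G or C against a median of 51.6% over 33360 windows of the same length. The Plau window held 3 GC boxes, whose first bases lie 122, 104 and 87 bases upstream. The Serpine2 window held 6, 5 of them within 97 bases of the start. A GC box was present in 30.5% of all windows. Serpinf1 (53.2% G or C) matched none of the 3 motifs. Serpinb2, the member that fell, had the start poorest in G and C (43.2%) and the one match among the 4 to the AP-1 pattern, 189 bases upstream. The matched letters were TGATTCA. The pattern TGANTCA allows any middle base, and 6.35% of all windows hold a match to it. TATAAA was in 12.9% of all windows and in none of these 4. These matches describe letters, not binding.

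Plau encodes urokinase, the activator that works at the surface of migrating cells. Its deposited intensities were 559, 635 and 634 in day 3 rats 4, 6 and 7, against 387, 434 and 298 in day 1 rats 1, 2 and 3. The lowest day 3 rat was above the highest day 1 rat, and the day 3 rats lay close together. On the log2 scale Plau averaged 9.21 ± 0.11 at day 3 and 8.46 ± 0.29 at day 1 (SD, n = 3 each). The difference was 0.75 (SE 0.16, 95% interval 0.36 to 1.14, limma adjusted p = 0.0201). Without rat 3 it was 0.59 (adjusted p = 0.0099 in the same test). The call was lost without rat 6 (adjusted p = 0.0774) and without rat 7 (adjusted p = 0.0715), while the difference stayed at 0.72 in both refits.

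Plat encodes the tissue-type activator, which endothelial cells release and which acts best when bound to fibrin. Its intensities were 4076, 5325 and 5722 in day 3 rats 4, 6 and 7, against 3973, 3398 and 1932 in day 1 rats 1, 2 and 3. Rats 4 and 1 nearly met, and rat 3 was far below the other day 1 rats. The log2 level averaged 12.28 ± 0.26 at day 3 and 11.53 ± 0.55 at day 1 (SD, n = 3 each), a difference of 0.75 (SE 0.28, 95% interval 0.08 to 1.43). It missed the threshold (limma adjusted p = 0.107). Rat 3 set much of its size: without that rat the difference was 0.44 (adjusted p = 0.0877).

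Serpine2, protease nexin-1, is a cell-surface serpin that inhibits thrombin, urokinase and plasmin. Its day 1 signal lay close to the background limit of 103. The intensities were 164, 195 and 140 in day 3 rats 4, 6 and 7, against 109, 122 and 109 in day 1 rats 1, 2 and 3. The day 1 rats were nearly level and all 3 day 3 rats lay above them, with rat 6 highest. The log2 level averaged 7.22 ± 0.26 at day 3 and 6.61 ± 0.10 at day 1 (SD, n = 3 each), and the difference was 0.61 (SE 0.15, 95% interval 0.25 to 0.97, limma adjusted p = 0.0302). So near background the size of the change depends on the correction: it was 0.54 with none and 0.85 with an offset of 16 in place of 50. Without rat 3 it was 0.58 (adjusted p = 0.0352). The call was lost without rat 1, 2, 4 or 6 (adjusted p = 0.0849, 0.0678, 0.0782 and 0.0877), with differences from 0.48 to 0.67.

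Serpinb2, plasminogen activator inhibitor type 2, inhibits urokinase and is kept largely inside the cells that make it, among them activated monocytes and macrophages. It was the member that fell. The intensities were 227, 155 and 157 in day 3 rats 4, 6 and 7, against 416, 507 and 251 in day 1 rats 1, 2 and 3. Rats 6 and 7 were alike, and day 3 rat 4 came close to day 1 rat 3. The log2 level averaged 7.34 ± 0.34 at day 3 and 8.49 ± 0.55 at day 1 (SD, n = 3 each), a difference of -1.15 (SE 0.30, 95% interval -1.87 to -0.44, limma adjusted p = 0.0345). Without rat 3 the fall was larger, -1.46 (adjusted p = 0.00245). The call was lost without rat 1, 2, 6 or 7 (adjusted p = 0.0954, 0.106, 0.119 and 0.115), with differences from -1.08 to -0.93.

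Serpinf1, pigment epithelium-derived factor, belongs to the serpin family by sequence but is known as a secreted inhibitor of vessel growth that inhibits no protease. It had the widest gap between the days of the 5 members. Its intensities were 1745, 2180 and 1702 in day 3 rats 4, 6 and 7, against 927, 905 and 857 in day 1 rats 1, 2 and 3. The day 1 rats spanned 0.12 log2 units and the gap up to the lowest day 3 rat was 0.89. The log2 level averaged 10.85 ± 0.20 at day 3 and 9.78 ± 0.06 at day 1 (SD, n = 3 each). The difference was 1.07 (SE 0.13, 95% interval 0.77 to 1.37, limma adjusted p = 0.00289), and it was past the threshold with any 1 of the 6 rats left out (0.96 to 1.14). Without rat 3 it was 1.04.

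**Figure D2:**
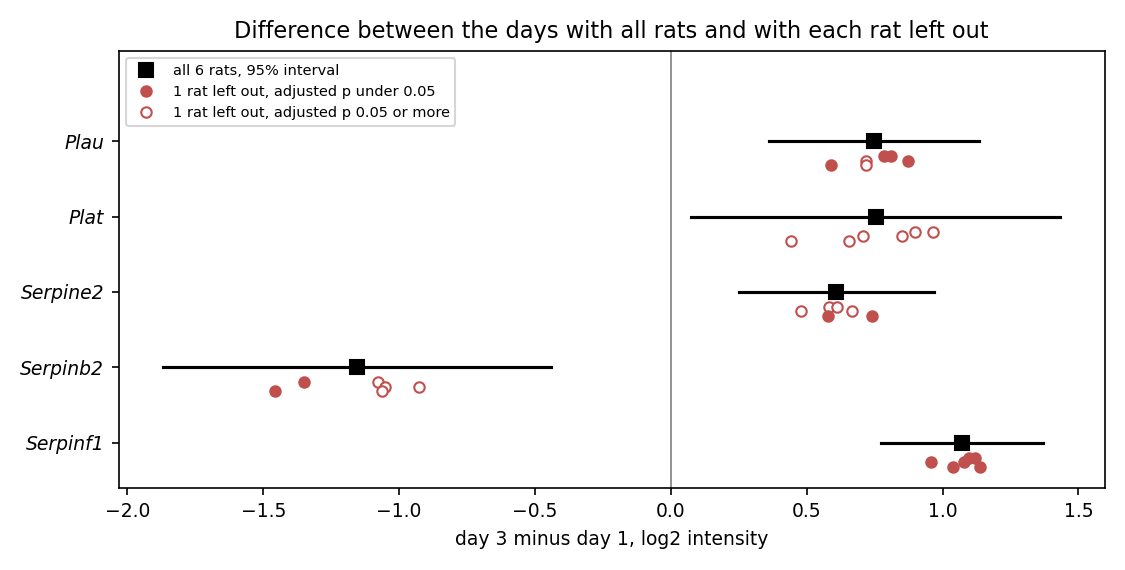
Day 3 minus day 1 in log2 intensity for each measured member. Squares are the fit to all 6 rats with the 95% interval of a single gene, and circles are the refits with 1 rat left out, filled where the adjusted p stayed under 0.05. Every refit keeps the direction of its gene. Serpinf1 is filled in 6 of 6 refits, Plau in 4, Serpine2 in 2, Serpinb2 in 2 and Plat in 0.

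Activators and serpins were also set against each other within each rat, as the difference of their log2 levels. The 2 members are measured by different probes, so the level of such a difference has no meaning and only its change between the days is described, with no test. Plau minus Serpinb2 was 1.36, 2.14 and 2.12 in day 3 rats 4, 6 and 7, against -0.11, -0.23 and 0.26 in day 1 rats 1, 2 and 3. The days were far apart, with a mean 1.90 log2 units higher at day 3. Plat minus Serpinb2 was higher at day 3 by 1.91 and did not overlap either. Plau minus Serpine2 differed by 0.14 between the days and Plat minus Serpine2 also by 0.14, and the rats of the days were interleaved. Against Serpinf1, the change was -0.32 for Plau and -0.32 for Plat, again with overlapping rats. Each mean change is the activator's own difference less that of the serpin, both given above, and adds only how the rats lie. Serpinf1 is set here as a family member, not as an inhibitor of the activators.

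**Figure D3:**
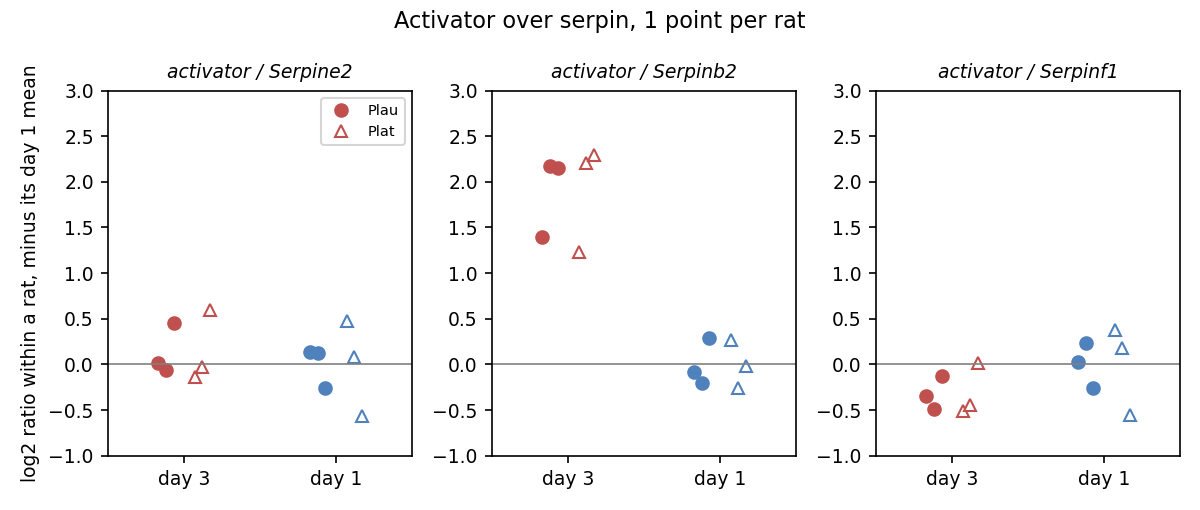
Log2 ratio of Plau (filled circles) or Plat (open triangles) to each serpin within a rat, less the day 1 mean of that ratio, with day 3 left of day 1. Each point is a rat. The points of the days are apart only in the Serpinb2 panel.

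The rest of the pathway did not move as a block. Of 54 other genes of plasminogen, its receptors, inhibitors and substrates, 42 had a probe and 28 were bright enough to be tested. Of these 28, 3 were higher at day 3, 4 were lower and 21 did not pass, which is 7 calls where 25.0% of all tested genes passed. The median difference was 0.03, and -0.01 over all tested genes. Without rat 3, 11 of them passed, and without rats 2, 6 and 7 in turn 3, 4 and 3.

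Plg, the zymogen itself, is a liver product and its probe was not above background on any of the 6 arrays. St14 (matriptase, a membrane-bound serine protease) and F12 (coagulation factor XII of the contact system) differed by 0.16 (SE 0.24) and -0.08 (SE 0.11) and did not pass. Without rat 3 the difference of St14 was -0.13.

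Among 10 tested receptors and binding partners 2 rose, 1 fell and 7 did not pass. Plgrkt, a membrane receptor for plasminogen, had intensities of 1231, 1094 and 1198 in day 3 rats 4, 6 and 7, against 909, 817 and 799 in day 1 rats 1, 2 and 3. It rose by 0.49 (SE 0.10, limma adjusted p = 0.019) and passed in 3 of 6 refits without 1 rat (adjusted p up to 0.0687). Itgb1, the integrin beta-1 chain, rose by 0.81 (SE 0.20, adjusted p = 0.0314) and passed in 2 of 6 (adjusted p up to 0.106). Itgam, the CD11b chain of the leukocyte integrin that binds fibrinogen and partners the urokinase receptor, had intensities of 836, 594 and 551 in day 3 rats 4, 6 and 7, against 2238, 2229 and 1636 in day 1 rats 1, 2 and 3. It fell by 1.66 on the log2 scale (SE 0.21, adjusted p = 0.00338) and passed in every refit without 1 rat. Anxa2, the annexin that docks plasminogen and the tissue-type activator on endothelium, differed by -0.15 (SE 0.16) and did not pass.

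Of 5 tested regulators outside the members, 2 fell and 3 did not pass. Serpinf2, alpha-2-antiplasmin, is the main inhibitor of plasmin in blood. Its intensities were 135, 127 and 111 in day 3 rats 4, 6 and 7, against 168, 214 and 182 in day 1 rats 1, 2 and 3, a difference of -0.66 (SE 0.14, limma adjusted p = 0.0191) that passed in 3 of 6 refits without 1 rat (adjusted p up to 0.065). Serpinf2 and Serpinf1 are neighbours on chromosome 10 in GRCr8, with 0 coding genes between them, and they moved in opposite directions. Thbd, thrombomodulin, which turns thrombin toward activating protein C and an antifibrinolytic carboxypeptidase, fell by 0.80 on the log2 scale (SE 0.14, adjusted p = 0.0104).

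Of 11 tested substrates and downstream proteases 1 rose, 1 fell and 9 did not pass. Lamc1, the laminin gamma-1 chain, rose by 1.33 (SE 0.26, limma adjusted p = 0.0142). Mmp9, the gelatinase B that neutrophils store in granules, fell by 1.32 on the log2 scale (SE 0.33, adjusted p = 0.0319) and passed in 1 of 6 refits without 1 rat (adjusted p up to 0.0997). Its intensities were 1048, 1154 and 1293 in day 3 rats 4, 6 and 7, against 2998, 4567 and 1735 in day 1 rats 1, 2 and 3, with the day 1 rats widely spread.

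The other serpins also moved in both directions. Of 20 looked for, 17 had a probe and 9 were tested, of which 2 rose, 2 fell and 5 did not pass, with a median difference of 0.02. Of all tested genes, 25.0% passed. Serpinb9, an intracellular inhibitor of granzyme B, had intensities of 2003, 2412 and 2092 in day 3 rats 4, 6 and 7, against 828, 834 and 845 in day 1 rats 1, 2 and 3, and rose by 1.39 (SE 0.11, limma adjusted p = 0.000949). Serping1, the inhibitor of complement C1, rose by 0.94 (SE 0.13, adjusted p = 0.00509). Serpinb10, a serpin of blood-forming cells in humans, lies next to Serpinb2 on chromosome 13 with 0 coding genes between them. It had intensities of 225, 166 and 155 in day 3 rats 4, 6 and 7, against 1111, 1207 and 490 in day 1 rats 1, 2 and 3, and fell by 2.38 on the log2 scale (SE 0.37, adjusted p = 0.00665). Both neighbours were thus lower at day 3, with rat 3 the lowest day 1 rat for each. Serpinb1a, an inhibitor of neutrophil elastase, fell by 1.06 on the log2 scale (SE 0.15, adjusted p = 0.00472). These 4 genes passed in every refit without 1 rat, and Serpinb10 missed the threshold with limma's moderation left out (adjusted p = 0.0554).

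**Figure D4:**
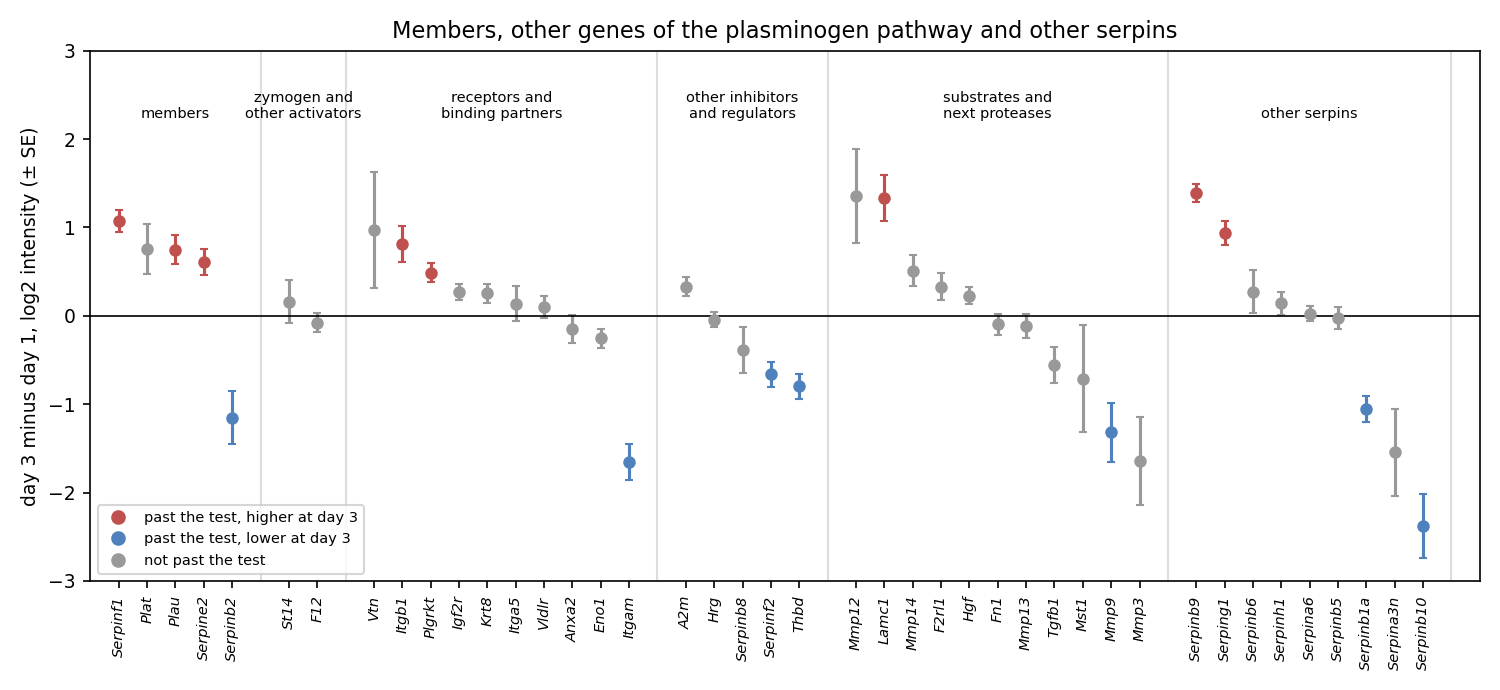
Day 3 minus day 1 in log2 intensity with the SE of the fit for the measured members, the tested genes of the pathway by role and the other tested serpins. Red points passed the test upward, blue points downward and grey points did not pass. Rising and falling genes stand in most groups, from Serpinb9 at 1.39 to Serpinb10 at -2.38.

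The genes whose profile over the 6 arrays was most like each member's were found by the root mean square distance between mean-centred log2 levels. For Plau these were Itm2c, Slc35b2 and Lsm3 (distance 0.058, 0.0586 and 0.0607, with r from 0.991 to 0.995). For Serpinf1 they were Gja1, Gpr180 and C1r (0.0542, 0.0619 and 0.0683, r from 0.993 to 0.996). For Serpinb2 they were Gpr65, Emb and Lypd8l1 (0.0559, 0.0876 and 0.0925, r from 0.994 to 0.999). Serpine2 was closest to Atp8b1, Mgat4b and Ror2 (0.0752 to 0.0909, r from 0.973 to 0.981), and Plat to Dctd, Calhm2 and Atp5mc1 (0.0793 to 0.11, r from 0.978 to 0.993). These values are a description over 6 arrays in 2 groups.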

How the data were processed

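Each of the 6 arrays measured 1 rat. The values used are the authors' deposited intensities, linear and quantile-normalised as the files show (median 104 on each array). The submitters' processing notes name limma. Scanner background setting is not given in the sources used here. The table before normalization has 12 value columns whose names match no sample label, and was not used. The intensities were background-corrected (normexp, offset 50), quantile-normalised and log2-transformed. A probe was tested if above an estimated background of 103 (the 95th percentile of a normal distribution around the mode of 87.2) on at least 3 of 6 arrays, which left 11650. Day 3 minus day 1 was fitted with limma 3.58.1 (R 4.3.3; lmFit, eBayes, two-sided) and adjusted by Benjamini and Hochberg. Of the probes, 13787 carry 1 gene symbol, 0 several and 8730 none; each gene is its brightest tested probe. Promoters are from RefSeq. Named genes were all members, from each list or role up to 4 passing genes per direction (or the 2 brightest), Plg, Anxa2 and Serpinf2, and the 3 genes most like each member. Members and lists were chosen with earlier results of these data known. The labels give 6 different rats; the number of arrays limits the precision.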

Additional observations from a re-analysis of the deposited data

How the results depend on the processing

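No paired analysis was possible because the days share no rat number. Every member kept its direction under every alternative run. The 4 calls also held with no background correction, an offset of 16, cyclic loess, array weights, a robust fit with a variance trend and values below background raised to the limit. With no filter on dim probes the Serpinb2 difference of -1.15 had adjusted p = 0.0504. When probes had to pass the 99th percentile on each of the 6 arrays, Serpine2 was too dim to be tested, and so were Serpinf2 and F12. With limma's moderation left out, Plau (0.75, adjusted p = 0.0779), Serpine2 (0.61, 0.0931) and Serpinb2 (-1.15, 0.13) missed the threshold and 1 member passed, with 1123 probes, 2 pathway genes and 3 other serpins. Itgb1, Thbd, Serpinf2, Lamc1, Mmp9 and Serpinb10 missed it too (adjusted p from 0.0534 to 0.126), and Itgb1 also with cyclic loess (0.0595). Array weights gave 4101 probes and 13 pathway genes, against 2729 and 7. The exact permutation test of 3 against 3 rats gave p = 0.1 for each member, Serpinf1 (1.07) included, the smallest it allows. With 1 rat left out, 1304 to 3777 probes, 1 to 4 members, 3 to 11 pathway genes and 4 to 5 other serpins passed. Differences then ran from 0.59 to 0.87 for Plau, 0.44 to 0.97 for Plat, 0.48 to 0.74 for Serpine2, -1.46 to -0.93 for Serpinb2 and 0.96 to 1.14 for Serpinf1. St14 turned to -0.069 with array weights, and its difference ran from -0.13 (without rat 3) to 0.34 with 1 rat left out. The causes were not tested. Each member has 1 probe, so averaging probes was not run.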
